A study of Mus musculus with 24 samples.

Results

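The pyruvate dehydrogenase complex and the kinases that switch it off were examined in mouse quadriceps, a large thigh muscle of mostly fast fibres, on 24 Affymetrix arrays. The genes were 9 in number and were chosen by symbol: the kinases Pdk1, Pdk2, Pdk3 and Pdk4, the phosphatase subunit Pdp1, and the subunits Pdha1, Pdhb, Dlat and Pdhx. A probe set, the group of short probes that reads a gene, was annotated to 1 symbol alone for 7 of them, as for 14754 genes in all. Of the 7, 6 were bright enough to be tested, which means a log2 intensity over 4 on at least 6 arrays, as for 5793 genes in all. Pdk3 was the dim one. The probe set of Pdk1 is also annotated to Pdpk1 and was named after neither gene. No probe set was annotated to Pdp1, which was not analysed here, and a further phosphatase gene, Pdp2, did not pass the filter.

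All mice were male C57BL/6J, which the sample labels write as C56BL/6J, and all first ate the low fat diet for 3 weeks. High fat day 3 mice then ate a palm oil diet with 45% of its energy as fat for 3 days and were 12 weeks old, and low fat day 3 mice of the same age stayed on a palm oil diet with 10% of its energy as fat. High fat day 28 and low fat day 28 mice ate these diets for 28 days and were 16 weeks old. Each group held 6 mice with 1 array each, and p-values measure the spread between these mice. The labels state random assignment, but the mice of each diet and day carry separate number ranges, so the set of animals and the diet cannot be told apart, and time on the diet cannot be told apart from age. For low fat day 3 replicate 1 the labels leave out a genomic DNA removal that they give for the other arrays. All 10 skeletal muscle markers, Acta1, Ckm and Myh4 among them, passed the filter, with group means of their log2 values between 13.19 and 13.27. Any 2 arrays correlated at 0.978 to 0.995 across probe sets, which were read as log2 of the deposited intensity.

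The complex sits in the mitochondrial matrix and turns pyruvate into acetyl-CoA, which commits carbon from glucose to oxidation. Pyruvate dehydrogenase kinases phosphorylate its alpha subunit and shut it off, and the phosphatases remove the phosphate again. Pdk2 and Pdk4 are the kinases best known in skeletal muscle, where Pdk4 is known to be induced in fasting and to spare glucose while fat is burned.

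The promoters of the 3 genes that differed between the diets, Pdk4, Pdk2 and Dlat, are shown because the sequence before their starts is what the rule for choosing genes did not use. Each window holds 250 bases before the gene's start and 50 after it, 5′ to 3′ on the gene's own strand, from RefSeq on GRCm38.p6. The windows lie at chr6:5496229-5496528 for Pdk4, chr11:95041322-95041621 for Pdk2 and chr9:50659731-50660030 for Dlat, all on the minus strand. Capitals mark matches of the CCAAT box (CCAAT, or ATTGG when read on the opposite strand) and of the GC box bound by Sp1 (GGGCGG or CCGCCC).
Pdk4: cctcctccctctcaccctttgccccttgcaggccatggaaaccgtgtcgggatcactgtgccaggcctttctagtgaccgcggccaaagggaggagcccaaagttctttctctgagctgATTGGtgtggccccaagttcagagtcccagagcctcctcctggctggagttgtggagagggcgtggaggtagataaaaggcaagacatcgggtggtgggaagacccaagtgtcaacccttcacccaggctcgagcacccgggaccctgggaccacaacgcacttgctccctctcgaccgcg
Pdk2: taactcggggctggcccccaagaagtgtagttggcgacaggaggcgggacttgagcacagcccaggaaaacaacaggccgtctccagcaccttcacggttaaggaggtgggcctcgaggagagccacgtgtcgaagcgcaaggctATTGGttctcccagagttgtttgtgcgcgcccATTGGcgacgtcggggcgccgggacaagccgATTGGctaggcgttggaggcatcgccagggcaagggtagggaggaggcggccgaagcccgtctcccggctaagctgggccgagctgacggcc
Dlat: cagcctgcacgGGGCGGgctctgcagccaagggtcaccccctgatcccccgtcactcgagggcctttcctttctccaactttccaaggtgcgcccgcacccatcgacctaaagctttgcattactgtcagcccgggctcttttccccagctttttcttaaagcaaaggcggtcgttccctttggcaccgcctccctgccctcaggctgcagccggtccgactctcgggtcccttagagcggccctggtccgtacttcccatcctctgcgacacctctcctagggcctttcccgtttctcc
Pdk2 held 3 CCAAT boxes, beginning at -105, -73 and -42 from the start, all on the opposite strand, and Pdk4 held 1 at -131, also on the opposite strand. Dlat held 1 GC box at -239 and no CCAAT box. Of all 32851 mouse promoter windows of this length, 37.4% held the CCAAT box and 35.7% the GC box. The TATA box TATAAA (13.6% of windows), the glucocorticoid receptor half-site TGTTCT (19.0%), the nuclear receptor half-site AGGTCA (16.3%) and the FoxO site GTAAACA (3.65%), each searched on both strands, had no match in these 3 windows. The share of G and C was 60.7% in Pdk4, 64.7% in Pdk2 and 62.0% in Dlat, against a median of 52.7% over all windows. A match describes the letters of the window only. Windows at the start of the gene were at hand for 6 of the 9 genes.

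Pdk4, the kinase known as the fasting-induced brake on glucose oxidation, was lower after 3 days of high fat feeding. Its log2 intensity ran from 11.56 through a median of 11.91 to 11.98 in high fat day 3 mice, against 12.08 through 12.17 to 12.57 in low fat day 3 mice. Every high fat mouse lay below every low fat mouse at this time. The mean was 11.85 ± 0.152 in high fat day 3 mice and 12.26 ± 0.191 in low fat day 3 mice (SD, n = 6 each), a log2 difference of -0.41 (SE 0.112, 95% interval -0.637 to -0.175), or 0.755 of the low fat level, with an adjusted p of 0.0167 (limma, Benjamini-Hochberg over 5793 genes). At day 28 the values ran from 11.81 through 11.91 to 12.04 in high fat mice and from 11.59 through 12.09 to 12.33 in low fat mice. The groups overlapped, since the low fat day 28 mice spread to both sides of the narrow high fat range. The day 28 means were 11.91 ± 0.0752 in high fat mice and 12.05 ± 0.300 in low fat mice (SD, n = 6 each), and the log2 difference of -0.14 (95% interval -0.366 to 0.0958, adjusted p = 0.493, limma) did not pass the test.

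In order of level, Pdk4 stood highest in low fat day 3 mice, then in low fat day 28, high fat day 28 and high fat day 3 mice, and no neighbours in this order differed beyond their spread. Day 28 against day 3 gave 0.06 on the high fat diet (adjusted p = 0.863) and -0.21 on the low fat diet (adjusted p = 0.348), both by limma. The lower value at day 3 kept its direction and its call with any single mouse left out, at adjusted p of at most 0.0462. With limma's array weights, which give less weight to arrays that vary more, it was -0.30 and was no longer called (adjusted p = 0.0704).

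Pdk2, the other kinase prominent in muscle, was higher after 28 days of high fat feeding. Its log2 intensity ran from 10.68 through a median of 10.72 to 10.79 in high fat day 28 mice, against 10.35 through 10.47 to 10.58 in low fat day 28 mice. Every high fat mouse lay above every low fat mouse, and the high fat day 28 group was the tightest of the 4. The means were 10.72 ± 0.0429 in high fat day 28 mice and 10.47 ± 0.0894 in low fat day 28 mice (SD, n = 6 each). The log2 difference was 0.26 (SE 0.0595, 95% interval 0.135 to 0.381), a 1.20-fold higher level, with an adjusted p of 0.00512 (limma). At day 3 the values ran from 10.45 through 10.53 to 10.78 in high fat mice and from 10.46 through 10.62 to 10.70 in low fat mice, nearly the same range. That difference was -0.03 (95% interval -0.150 to 0.0962, adjusted p = 0.802, limma), so a change as large as that of day 28 lies outside its interval.

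For Pdk2 the order of levels was high fat day 28, low fat day 3, high fat day 3 and low fat day 28. The neighbours in this order overlapped in their ranges. The day 28 mice differed from the day 3 mice by 0.16 on the high fat diet (adjusted p = 0.207) and by -0.12 on the low fat diet (adjusted p = 0.301), and neither passed the test (limma).

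The probe set annotated to both Pdk1 and Pdpk1 ran from 6.17 through 6.51 to 6.85 in high fat day 3 mice and from 6.08 through 6.51 to 6.63 in low fat day 3 mice. At day 28 it ran from 6.40 through 6.49 to 6.58 in high fat mice and from 6.30 through 6.44 to 6.78 in low fat mice. Pdk1 encodes a further kinase of the complex and Pdpk1 a protein kinase of insulin signalling. The symbols alone do not say which of them this probe set reads. Its number is an Entrez gene number of Pdk1, so it may read Pdk1 alone, which was not tested. The ranges of the diets overlapped at both days. In a limma fit over 6323 probe sets, chosen after seeing the data so that this one could be included, its differences were 0.09 at day 3 (95% interval -0.145 to 0.318, adjusted p = 0.641) and -0.002 at day 28 (95% interval -0.234 to 0.229, adjusted p = 0.994). Pdk3, a kinase best known outside muscle, lay between 1.84 and 2.88 on all 24 arrays, was above the filter on 0 of them and was not tested.

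Dlat, the subunit that passes the acetyl group to coenzyme A, was higher after 3 days of high fat feeding. Its log2 intensity ran from 9.50 through a median of 9.57 to 9.67 in high fat day 3 mice, against 9.26 through 9.38 to 9.46 in low fat day 3 mice. The highest low fat mouse lay below the lowest high fat mouse. The means were 9.58 ± 0.0649 in high fat day 3 mice and 9.36 ± 0.0742 in low fat day 3 mice (SD, n = 6 each), a log2 difference of 0.22 (SE 0.0540, 95% interval 0.105 to 0.328), or a 1.16-fold higher level, with an adjusted p of 0.00896 (limma). At day 28 Dlat ran from 9.34 through 9.42 to 9.49 in high fat mice and from 9.18 through 9.39 to 9.48 in low fat mice. These groups overlapped, and the difference of 0.05 (95% interval -0.0645 to 0.159, adjusted p = 0.637, limma) did not pass the test.

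High fat day 3 mice held the highest Dlat level, followed by high fat day 28, low fat day 28 and low fat day 3 mice. Every high fat day 28 mouse lay below every high fat day 3 mouse, as for 0.967% of tested genes, yet the log2 difference of -0.16 (95% interval -0.270 to -0.0463) was not called (adjusted p = 0.172, limma). The neighbours below them, high fat day 28 against low fat day 28 and low fat day 28 against low fat day 3 (0.01, adjusted p = 0.950), did not differ beyond their spread.

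The other 3 subunits passed the test in neither diet comparison. Pdha1, the alpha subunit that carries the sites phosphorylated by the kinases, ran from 10.80 to 11.09 in high fat day 3 mice and from 10.94 to 11.12 in low fat day 3 mice. At day 28 it ran from 10.93 to 11.25 in high fat mice and from 10.70 to 11.14 in low fat mice. Its differences were -0.02 at day 3 (95% interval -0.167 to 0.136, adjusted p = 0.910) and 0.13 at day 28 (95% interval -0.0243 to 0.279, adjusted p = 0.294), both by limma. At day 3 its sign turned under several settings.

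Pdhb, the beta subunit that completes the decarboxylating enzyme, ran from 7.02 to 7.11 in high fat day 3 mice and from 6.86 to 7.10 in low fat day 3 mice, and from 6.86 to 7.19 in high fat day 28 mice and from 6.83 to 7.07 in low fat day 28 mice. Its differences were 0.08 at day 3 (95% interval -0.0411 to 0.196, adjusted p = 0.389) and 0.03 at day 28 (95% interval -0.0864 to 0.151, adjusted p = 0.788), both by limma. Pdhx, the protein that anchors the shared dehydrogenase subunit to the core, ran from 8.46 to 8.65 in high fat day 3 mice and from 8.36 to 8.65 in low fat day 3 mice, and from 8.22 to 8.58 in high fat day 28 mice and from 8.25 to 8.57 in low fat day 28 mice. Its differences were 0.08 at day 3 (95% interval -0.0658 to 0.227, adjusted p = 0.472) and 0.06 at day 28 (95% interval -0.0846 to 0.209, adjusted p = 0.637), both by limma. The diets overlapped for both genes at both days.

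**Figure D1:**
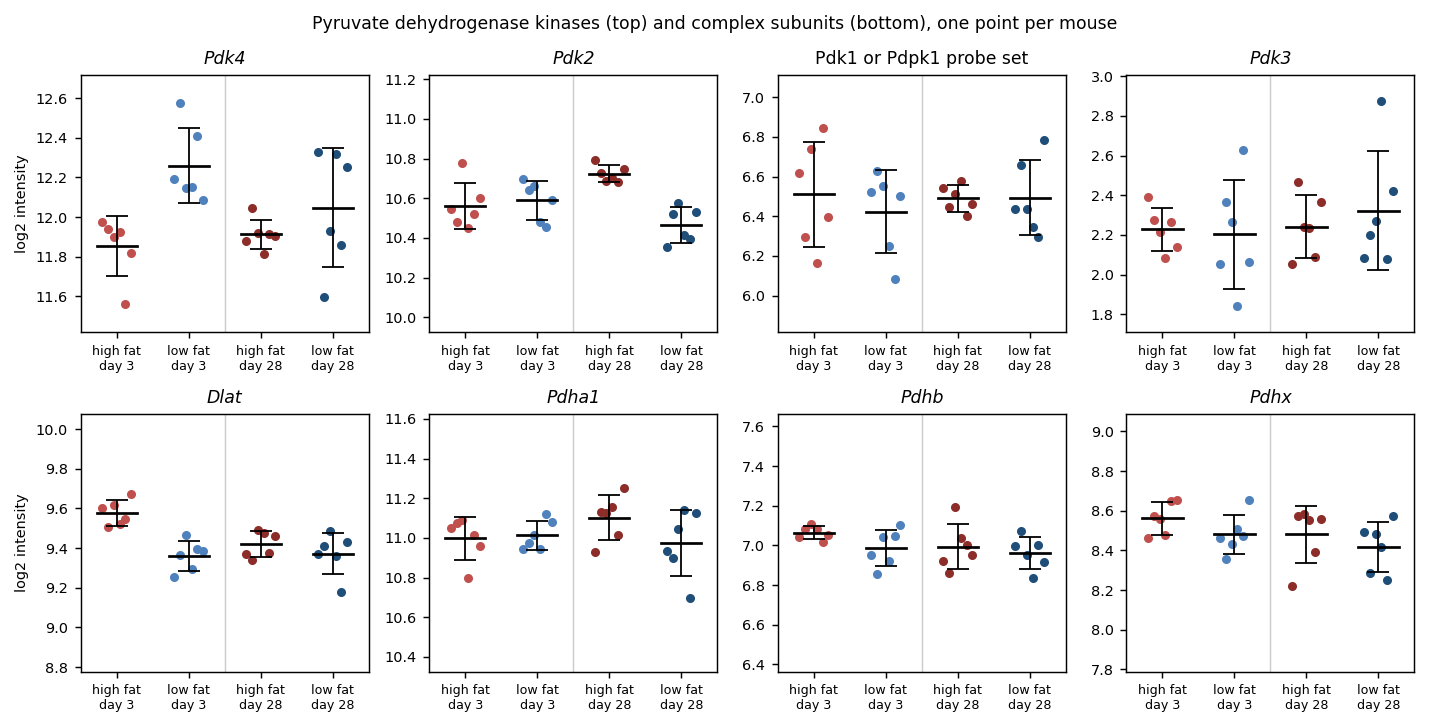
Log2 intensity of each kinase (top row) and complex subunit (bottom row) for every mouse, with high fat left of low fat at day 3 and at day 28. Bars show the group mean and SD (n = 6), and all panels span the same height on their own axes. The diets do not overlap for Pdk4 and Dlat at day 3 and for Pdk2 at day 28.

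Of the 6 tested genes, 2 were called at day 3, 1 higher (Dlat) and 1 lower (Pdk4), where 14.9% of all tested genes were called, 7.99% higher and 6.87% lower. At day 28, 1 of the 6 was called, Pdk2, where 12.5% of all tested genes were called, 5.35% higher and 7.18% lower. Groups that did not overlap were seen for the same genes, against 6.09% of all tested genes at day 3 (3.5% higher and 2.59% lower) and 8.04% at day 28 (3.49% higher). Since 1 gene makes up 16.7% of the 6, nothing about the complex as a group is read from these counts. The median difference of the 6 was 0.03 at day 3 and 0.05 at day 28, beside -0.01 at day 3 and 0.01 at day 28 for all tested genes. By size, the day 3 difference of Pdk4 exceeded that of 88.0% of tested genes, that of Dlat 68.1%, and the day 28 difference of Pdk2 77.0%.

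**Figure D2:**
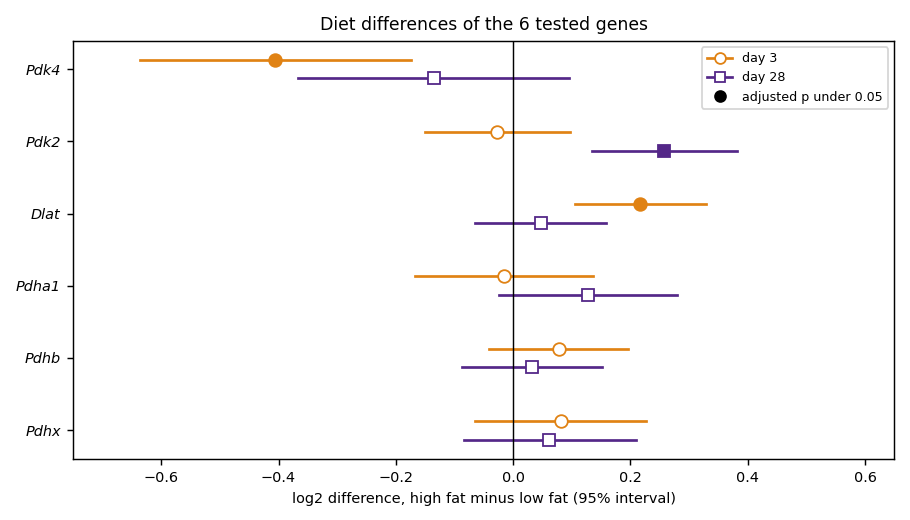
Log2 difference of high fat minus low fat with its 95% interval for the 6 tested genes, at day 3 (circles) and day 28 (squares). Filled symbols have an adjusted p under 0.05: Pdk4 (-0.41) and Dlat (0.22) at day 3 and Pdk2 (0.26) at day 28.

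Whether the diet difference itself changed between the days was tested as an interaction, and 0 of the 6 genes were called (limma), with 2 at an unadjusted p under 0.05, Pdk2 and Dlat. Of all tested genes 1.38% were called, and 18.8% had an unadjusted p under 0.05. The diet difference at day 28 minus that at day 3 was 0.28 for Pdk2 (SE 0.0841, adjusted p = 0.0733), 0.27 for Pdk4 (SE 0.158, adjusted p = 0.356) and -0.17 for Dlat (SE 0.0764, adjusted p = 0.239). A diet difference called at a single day was therefore not shown to be particular to that day for any of the 3 genes. For Pdk2 the call depended on the setting: it passed with array weights (0.29, adjusted p = 0.0339), with the slow fibre marker mean as covariate (0.31, adjusted p = 0.0428) and with high fat day 3 replicate 3, its highest mouse of that group, left out (0.33, adjusted p = 0.0336), while the other leave-outs gave adjusted p of up to 0.130. Of the 6 genes, 0 were called for day 28 against day 3 on the high fat diet, with 2 at an unadjusted p under 0.05, beside 0.552% of all tested genes called and 14.4% under the unadjusted threshold. On the low fat diet 0 were called, with 0 at an unadjusted p under 0.05, beside 0.345% and 16.6% of all tested genes.

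Markers of other cells and fibres moved with the diet in these muscles. The mean log2 value of 11 tested slow fibre markers of 13 listed, Myh7, Tnni1 and Tnnt1 among them, ran from 8.53 to 10.82 in high fat day 3 mice and from 4.53 to 7.66 in low fat day 3 mice, and from 8.62 to 9.60 in high fat day 28 mice and from 5.05 to 7.86 in low fat day 28 mice, with no overlap at either day. All 11 were called higher at day 3 and 9 at day 28, and Pln was below the filter. The low fat day 3 means of Myh7, Tnni1 and Tnnt1 were 3.99, 3.15 and 3.76, under the filter's log2 of 4. The mean of 10 tested adipocyte markers of 14 listed, Adipoq and Fabp4 among them, ran from 6.18 to 9.17 in high fat day 3 mice and from 6.66 to 9.49 in low fat day 3 mice, where 4 of the 10 were called lower and 1 higher. At day 28 it ran from 5.95 to 7.01 in high fat mice and from 8.34 to 9.99 in low fat mice, with 9 of the 10 called lower and Lep below the filter. Of 10 endothelial markers 6 were called higher at day 3 and 1 at day 28, and of 9 macrophage markers 1 was called lower at day 3 and 8 at day 28. Of all tested genes 7.99% were called higher and 6.87% lower at day 3, and 5.35% higher and 7.18% lower at day 28. In whole muscle, fewer cells of a type and less RNA per cell cannot be told apart.

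Members of the complex were set against these markers by fitting the marker mean as a covariate. With the slow fibre mean, 0 of the 3 calls remained: Pdk4 at day 3 was -0.01 (adjusted p = 0.992), Dlat at day 3 was 0.14 (adjusted p = 0.608) and Pdk2 at day 28 was 0.10 (adjusted p = 0.877), all by limma. Over all tested genes the same covariate left 17 called of 861 at day 3 and 26 of 726 at day 28, and the marker mean itself separates the diets. With the adipocyte mean, Pdk4 and Dlat at day 3 kept their calls and Pdk2 at day 28 was 0.20 (adjusted p = 0.515). Within groups, after each group mean was subtracted, the slow fibre mean correlated over the 24 mice with Pdk2 at r = 0.516 (rho = 0.648) and with Pdk4 at r = -0.532 (rho = -0.514). Among 24 such relations, of 4 marker means with 6 genes, none passed, with adjusted permutation p of 0.137 for both r, 0.110 for the rho of Pdk2 and 0.196 for that of Pdk4. Without the 2 mice farthest from the median, r was 0.479 for Pdk2 and -0.373 for Pdk4. The macrophage mean gave r = -0.545 with Pdk2 (rho = -0.559) and r = -0.524 with Dlat (rho = -0.443), and the endothelial mean r = 0.541 with Pdha1 (rho = 0.550). For these 3 the adjusted permutation p was 0.127 for r and 0.110, 0.210 and 0.110 for rho, and r without the 2 farthest mice was -0.543, -0.452 and 0.497.

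**Figure D3:**
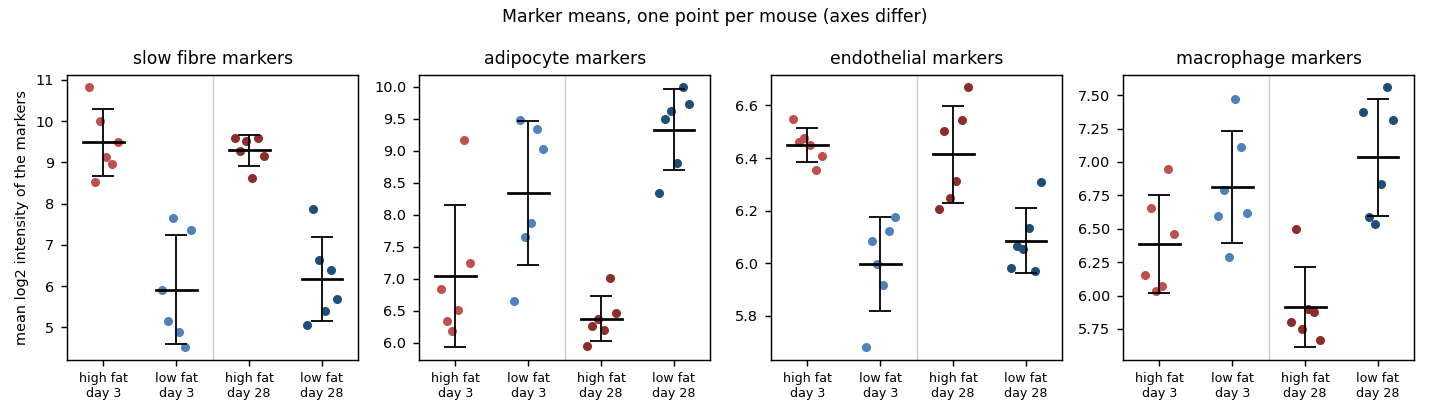
Mean log2 intensity of the tested markers of slow fibres, adipocytes, endothelium and macrophages for every mouse, with high fat left of low fat at each day. Bars show the group mean and SD (n = 6), and the axes differ. The slow fibre means of high fat mice (8.53 to 10.82 at day 3) lie above those of low fat mice (4.53 to 7.66) at both days.

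Most of these genes varied little between mice. Within groups the pooled SD was 0.0787 for Dlat, 0.0862 for Pdhb and 0.0911 for Pdk2, and 2.38%, 4.13% and 5.58% of tested genes in that order had a smaller one. Pdhx (SD 0.116) and Pdha1 (SD 0.121) came next, with 14.8% and 16.9% of tested genes below them. Pdk4 was the variable one, with an SD of 0.197 that exceeded that of 53.1% of tested genes, and its mice spanned 1.01 on the log2 scale. The 2 subunits Pdha1 and Pdhx varied together from mouse to mouse within groups, at r = 0.643 over 24 mice (permutation within groups, p = 0.0025, adjusted p = 0.0375 over 15 pairs of genes) and rho = 0.541 (adjusted p = 0.207), and at r = 0.571 without the 2 farthest mice. Pdha1 and Dlat gave r = 0.580 (adjusted permutation p = 0.0847), which was 0.352 without the 2 farthest mice. The kinases Pdk2 and Pdk4 gave r = -0.172 (rho = -0.24, adjusted permutation p = 0.787 and 0.626).

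For each gene the 3 tested genes with the most similar mouse-to-mouse pattern were found by Pearson's r over the 24 mice after group means were subtracted, a description with no test. For Pdk4 they were Tmem140 (r = 0.886), Tcp11l2 (0.852) and Pank1 (0.819), the last a kinase of coenzyme A synthesis. Tmem140 and Tcp11l2 were also called lower in high fat day 3 mice, by log2 differences of -1.69 (adjusted p = 0.000456) and -0.59 (adjusted p = 0.00136, limma), while Pank1 gave 0.16 (adjusted p = 0.678). For Pdk2 they were Eif4g2 (0.810), a translation initiation factor, Ankrd40 (0.787) and Klhdc10 (0.764), none of which was called at day 28. Pdha1 came with the ubiquitin ligase Arih1 (0.847), the stress kinase Mapk14 (0.845) and Oga (0.822), the enzyme that removes O-linked N-acetylglucosamine. Dlat came with the sphingomyelinase Smpd1 (0.812), the ether lipid enzyme Gnpat (0.787) and Mgrn1 (0.776). Pdhx came with Acadvl (0.807), the dehydrogenase of very long chain fatty acids, the oxoglutarate carrier Slc25a11 (0.712) and Fam25c (0.698). Pdhb came with Mepce (0.742), Rbbp4 (0.702) and Orai1 (0.691).

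Beyond the complex, 32 differences of other pathway genes picked by the naming rule passed the test. With the slow fibre mean as covariate 4 of them kept their call, 25 lost it and 3 turned direction, and with the adipocyte mean 15 kept it and 17 lost it. A lost call did not always come with a smaller difference: with the slow fibre mean Plin5 at day 3 was 0.98 (adjusted p = 0.139) against 0.93 without it, and Rxra was -0.41 (adjusted p = 0.164) against -0.29. The remaining genes of the complex showed no call in either diet comparison. Of 8 listed, 5 were tested, with 0 of them at an unadjusted p under 0.05 at day 3 and 1 (Lipt2) at day 28, and their median difference was 0.07 at day 3 and -0.03 at day 28. Dld, the dehydrogenase subunit shared with sister complexes, had differences of 0.13 at day 3 (adjusted p = 0.250) and 0.14 at day 28 (adjusted p = 0.229), and Lias, which makes the lipoyl group that Dlat carries, 0.07 at day 3 (adjusted p = 0.370). Pdpr, the regulatory subunit of the phosphatase, had the widest error, at -0.52 (SE 0.321, adjusted p = 0.287) at day 3 and 0.52 (SE 0.321, adjusted p = 0.337) at day 28. Its high fat and low fat means were 3.74 and 4.26 at day 3 and 3.97 and 3.45 at day 28. They lie near or under the filter's log2 of 4, so its differences rest on dim values. Lipt2, a lipoyl transferase, stood at -0.32 at day 28 (adjusted p = 0.135). These tests were limma's.

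Among genes that supply pyruvate or use it elsewhere, 11 of 15 were tested. At day 3, 2 were called higher and 3 lower, with a median of 0.08. Of all tested genes 14.9% were called at day 3 and 12.5% at day 28, in either direction. Ldhb, the lactate dehydrogenase of oxidative fibres, was 2.55-fold higher (log2 1.35, adjusted p = 0.00289), and the lactate and pyruvate carrier Slc16a1 was 1.33-fold higher (log2 0.42, adjusted p = 0.00103). Pcx, which carboxylates pyruvate to oxaloacetate, was lower by a log2 difference of -0.96 (adjusted p = 0.0212), and the alanine transaminase Gpt2 by -0.39 (adjusted p = 0.0290). The call of Gpt2 held in 7 of 13 alternatives and in 19 of the 24 fits that left out 1 mouse, and with array weights it was -0.28 (adjusted p = 0.136). The third gene called lower was the lactate exporter Slc16a3, named after its values were seen, at -0.55 (adjusted p = 0.0360). At day 28, 2 were higher and 1 lower, with a median of -0.05: Ldhb at 1.22 (adjusted p = 0.00607), Crat, the carnitine acetyltransferase that buffers acetyl-CoA, at 0.28 (adjusted p = 0.0110), and Pcx at -1.88 (adjusted p = 8.43e-05, limma). With the adipocyte marker mean as covariate the difference of Pcx was -0.35 at day 28 (adjusted p = 0.594) and -0.29 at day 3 (adjusted p = 0.214). That marker mean itself separates the diets at day 28, where the fit called 33 genes against 726 without it. Why the value of Pcx changed was not tested. Once slow fibre markers entered the fit, Ldhb stood at -0.03 at day 3 (adjusted p = 0.990) and 0.01 at day 28 (adjusted p = 0.997). In that fit Pcx stood at -0.57 at day 3 (adjusted p = 0.678) and -1.53 at day 28 (adjusted p = 0.142, limma). With the adipocyte mean Ldhb was 0.88 at day 28 (adjusted p = 0.549, limma) and kept its call at day 3.

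The sister complexes that act on other oxoacids gave 2 of 7 tested genes lower at day 3 and 1 at day 28, with medians of -0.11 and 0.09. Of all tested genes 6.87% were called lower at day 3 and 7.18% at day 28, and with so few genes nothing about the list is read from these counts. The called genes encode subunits of the branched-chain ketoacid dehydrogenase. Bckdhb was -0.39 at day 3 (adjusted p = 0.0203) and -0.41 at day 28 (adjusted p = 0.0157), and Bckdha was -0.27 at day 3 (adjusted p = 0.0223, limma). In a fit of the day 3 arrays alone neither passed, with adjusted p of 0.0630 for Bckdhb and 0.0772 for Bckdha. With the adipocyte mean as covariate Bckdhb was -0.23 at day 3 (adjusted p = 0.181) and -0.03 at day 28 (adjusted p = 0.970).

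Factors known to control Pdk4 were mixed. Of 16 listed, 12 were tested, and 1 was called higher and 2 lower at day 3, with a median of 0.15. Of all tested genes 14.9% were called at day 3 and 12.5% at day 28, so nothing about the list is read from its counts. Esrrg, an orphan nuclear receptor of oxidative muscle that activates Pdk4, was 1.84-fold higher at day 3 (log2 0.88, adjusted p = 0.000738) and 1.75-fold higher at day 28 (log2 0.80, adjusted p = 0.00147), the opposite direction to Pdk4 at day 3. Cebpb was -0.74 (adjusted p = 0.00396) and the nuclear receptor partner Rxra -0.29 (adjusted p = 0.00698) at day 3. Pparg, the master regulator of fat cells, was -2.51 at day 28 (adjusted p = 0.000194), where 1 gene was higher and 1 lower and the median was 0.05. Its mean was 2.74 in high fat day 28 mice, under the filter's log2 of 4, against 5.24 in low fat day 28 mice. The size of that difference therefore rests on dim values. With the slow fibre mean as covariate Esrrg was 0.19 at day 3 (adjusted p = 0.781) and 0.20 at day 28 (adjusted p = 0.901, limma). With the adipocyte mean as covariate Esrrg at day 28 was 0.36 (adjusted p = 0.627) and Pparg -0.46 (adjusted p = 0.725, limma). Pparg kept its call with the slow fibre mean.

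Genes known to be induced together with Pdk4 by PPAR receptors and fasting did not all share its direction. Of 20 PPAR and fasting targets in muscle, 15 were tested, and 8 were called higher and 1 lower at day 3 (median 0.32), with 9 higher and 3 lower at day 28 (median 0.39). Of all tested genes 7.99% were called higher and 6.87% lower at day 3, and 5.35% higher and 7.18% lower at day 28. Slc25a20, the acylcarnitine carrier, was 1.49-fold higher at day 3 (adjusted p = 5.88e-07) and 1.43-fold higher at day 28 (adjusted p = 3.05e-06). Acadm, of medium-chain oxidation, was 0.37 higher on the log2 scale at day 3 (adjusted p = 0.000247) and 0.43 higher at day 28 (adjusted p = 4.62e-05). Plin5, a lipid droplet protein of oxidative tissue, was 0.93 higher (adjusted p = 0.000298) and Acadvl 0.33 higher (adjusted p = 0.00162) at day 3, and Cpt1b, the muscle carnitine palmitoyltransferase, 0.50 higher at day 28 (adjusted p = 0.000213). Fitted beside the slow fibre mean, Acadm was 0.23 at day 3 (adjusted p = 0.37). At day 28 it was 0.30 (adjusted p = 0.171, limma). That fit gave 0.32 for Acadvl (adjusted p = 0.286) and 0.98 for Plin5 (adjusted p = 0.139) at day 3. For Cpt1b at day 28 it gave 0.42 (adjusted p = 0.196). None of these passed, while Slc25a20 kept its call at both days in all 13 alternatives. The lower genes were the uncoupling protein Ucp3 at day 3 (-0.78, adjusted p = 0.0103) and, at day 28, the lipid droplet protein Plin2 (-1.49, adjusted p = 0.000228), the lipase inhibitor Angptl4 (-1.62, adjusted p = 0.0178) and the triglyceride lipase Pnpla2 (-0.63, adjusted p = 0.00691, limma). Of these 4, Ucp3, Angptl4 and Pnpla2 were named after their values were seen, and Plin2 with the adipocyte mean as covariate was -0.13 (adjusted p = 0.850).

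Glucocorticoid and FoxO targets, another group of fasting-linked genes to which Pdk4 belongs, included more genes called lower at day 3 than at day 28. Of 19 listed, 13 were tested, with 0 called higher and 10 lower at day 3 (median -0.98) and 0 higher and 5 lower at day 28 (median -0.44), beside medians of -0.01 and 0.01 for all tested genes. Of all tested genes 6.87% were called lower at day 3 and 7.18% at day 28. In the interaction test 12 of the 13 were not called, so these counts do not show a change between the days. Klf15, a glucocorticoid-induced factor of muscle metabolism, was 0.432 of the low fat level at day 3 (log2 -1.21, adjusted p = 1.98e-05), Glul, glutamine synthetase, 0.501 (adjusted p = 0.000298), Sesn1 0.547 (adjusted p = 0.000511) and Cebpd 0.306 (adjusted p = 0.000648). At day 28 Glul was -1.11 (adjusted p = 8.94e-05), the metallothionein Mt1 -1.80 (adjusted p = 0.0292), the glucocorticoid receptor partner Fkbp5 -0.99 (adjusted p = 0.0314), Gadd45a -1.0 (adjusted p = 0.0415) and Sgk1, named after its values were seen, -0.43 (adjusted p = 0.0425). With 1 mouse left out, the calls held in 20 of 24 fits for Mt1, 18 for Fkbp5 and 17 for Gadd45a. With the slow fibre mean as covariate Klf15 was -0.94 (adjusted p = 0.161) and Glul -0.33 (adjusted p = 0.632) at day 3. Sesn1 was -0.54 (adjusted p = 0.409) and Cebpd -1.13 (adjusted p = 0.404) at day 3, all by limma. At day 28 the same covariate gave Glul -0.53 (adjusted p = 0.447), Mt1 -0.08 (adjusted p = 0.988), Fkbp5 -0.44 (adjusted p = 0.912) and Gadd45a 0.23 (adjusted p = 0.958). With the adipocyte mean Glul at day 28 was -0.67 (adjusted p = 0.314) and Mt1 -0.55 (adjusted p = 0.869). Gadd45a was not called without the filter (adjusted p = 0.0648) or after quantile normalization (adjusted p = 0.0506). The diet difference of Klf15 itself changed between the days, by 0.88 (SE 0.222, adjusted p = 0.0457, limma), with day 28 at -0.33 and not called (adjusted p = 0.193). The interaction held its call in 5 of the 24 fits that left out 1 mouse.

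**Figure D4:**
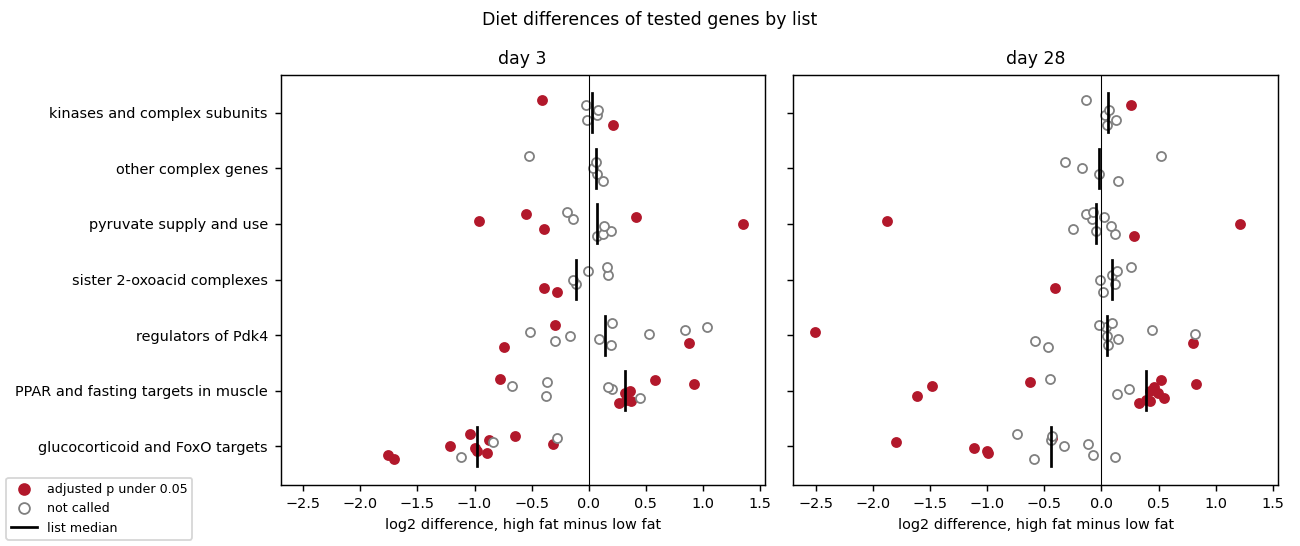
Log2 difference of high fat minus low fat for every tested gene of each list, at day 3 (left) and day 28 (right). Filled points have an adjusted p under 0.05 and black bars are list medians. Glucocorticoid and FoxO targets have a median of -0.98 at day 3 and -0.44 at day 28, and the medians of the kinases and subunits are 0.03 and 0.05.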

How the data were processed

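Quadriceps RNA of 24 mice was hybridised to 24 one-colour arrays. The authors deposited 1 linear intensity per probe set and array, computed with GCRMA per the submitters' processing notes (version not given in the sources used here), for 16361 probe sets, which range from 0.881 to 20520. Here log2 was taken with no offset. The platform annotation names 14771 probe sets with 1 symbol and 589 with several, and those with several name no gene. The brightest probe set stood for a gene. For genes over log2 4 on at least 6 arrays, limma 3.58.1 (R 4.3.3) fitted all 24 arrays jointly (20 residual degrees of freedom, two-sided, Benjamini-Hochberg, called at adjusted p under 0.05), a fit checked on simulated data. Correlations used permutations within groups in Python 3.11.15.

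The members and lists were chosen with earlier results of these data known. Named were all members, the called genes of each list (at most 4, of smallest p), the 3 of smallest p in a list with none called, and the 3 genes most like each member. Alternatives changed the arrays fitted, the filter, an offset of 16, the normalization, weights, prior, marker means and beta-actin ratio as covariates, the replicate block and the probe set rule, or left out 1 mouse. The number of arrays limits the precision.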

Additional observations from a re-analysis of the deposited data

Results flagged for a closer look

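Of 56 groups of values examined, 3 held a mouse whose gap to its nearest neighbour exceeded Dixon's 95% critical value for the share of the group's range, and chance flags about 1 in 20 groups. High fat day 3 replicate 5 stood apart in the adipocyte marker mean (gap 0.643 of the range), and this mouse also had the lowest Pdk4 of all 24, 11.56. Without it Pdk4 and Dlat kept their day 3 calls. High fat day 28 replicate 2 stood apart in the macrophage marker mean (0.715), and high fat day 3 replicate 6 in the only tested erythroid marker, Alas2 (0.717). The diet difference of Klf15 changed between the days by 0.881 (adjusted p = 0.0457, limma). It kept its call in 5 of the 24 fits that left out 1 mouse each.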

How the results depend on the processing

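Of 13 alternatives, Pdk4 and Dlat at day 3 and Pdk2 at day 28 kept their direction in all and their calls in 11, 12 and 11, and with each mouse left out in turn all 3 kept both. Changes of filter, prior or probe set rule, the replicate block and a fit of the compared arrays alone cannot move these log2 differences. Under these settings the direction was fixed in advance. Where a value changed, the cause was not tested, and the marker means used as covariates themselves differ between the diets. With array weights the count of called members was 1 at day 3 and 1 for the interaction (Pdk2, 0.29). With the slow fibre mean as covariate it was 0 at day 3, 0 at day 28 and 1 for the interaction (Pdk2, 0.31, adjusted p = 0.0428), and with the adipocyte mean it was 0 at day 28. With 1 mouse left out it ranged from 0 to 1 for the interaction.

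These differences turned direction, and of them Ldhb and Gpt2 at day 3 and Gadd45a at day 28 had been called. With the slow fibre mean, day 3 gave 0.0397 for Pdha1, -0.0472 for Pdhb, 0.217 for Gpt2 and -0.031 for Ldhb, and day 28 gave -0.0205 for Dlat, -0.077 for Pdhb, 0.21 for Pdk4, 0.23 for Gadd45a and -0.0722 for Pdpr. Pdha1 at day 3 was 0.00544 with array weights and 0.0246 with the beta-actin ratio as covariate. The interaction of Pdhx was 0.00113 after quantile normalization, 0.0215 with array weights and 0.00285 with the adipocyte mean. Dlat on the low fat diet, day 28 minus day 3, was -0.00318 with the beta-actin ratio. With 1 mouse left out, Pdha1 at day 3 ranged from -0.034 to 0.0241, Pdhb at day 28 from -0.00781 to 0.0582, and the interaction of Pdhx from -0.0533 to 0.0329. On the low fat diet, day 28 minus day 3 ranged from -0.0114 to 0.0495 for Dlat, from -0.0509 to 0.000849 for Pdhb and from -0.073 to 0.0155 for Pdha1.

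Counts of called genes moved by over 1.5 times as follows. Day 3, 861 genes, gave 507 with the compared arrays alone and 17 with the slow fibre mean. Day 28, 726 genes, gave 26 with the slow fibre mean and 33 with the adipocyte mean. The interaction, 80 genes, gave 6 without the filter, 278 with array weights, 9 with the adipocyte mean, 176 with the replicate block and 19 to 115 with 1 mouse left out. Day 28 against day 3 on the high fat diet, 32 genes, gave 9 without the filter, 106 with array weights, 18 with either marker mean, 16 with the beta-actin ratio and 3 to 51 with 1 mouse left out. On the low fat diet, 20 genes, it gave 0 with the compared arrays alone, 3 without the filter, 40 after quantile normalization, 132 with array weights, 34 with the slow fibre mean, 0 with the adipocyte mean, 7 with the beta-actin ratio, 32 with the replicate block and 0 to 59 with 1 mouse left out.

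The replicate numbers name separate mice and were not treated as pairs in the main fit. Same-numbered mice correlated at -0.384 to 0.537 over 24 pairs within and across days, 11 of them over 0.1. The pairs at 0.35 and 0.537 were between the diets at day 28, and that at -0.384 between the days on the low fat diet. Whether arrays of the same number shared a step of processing was not tested. With the replicate block the adjusted p was 0.0328 for Pdk4 and 0.00893 for Dlat at day 3 and 0.0041 for Pdk2 at day 28, and no member's call changed. It ended the calls of Gpt2 at day 3 (adjusted p = 0.0504) and Gadd45a at day 28 (adjusted p = 0.0677). Dim genes such as Pdk3 are limited by the background correction.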
